A study of Mus musculus with 2 samples.

Results

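Pericentral hepatocytes are the liver cells that border the central vein. Here they were taken as 133 nuclei of the 17169 in a single-nucleus RNA matrix from frozen mouse liver, dissected around residual tumour of mouse liver cancer, hepatocellular carcinoma (HCC). The members were chosen by their measured UMI counts of the gate genes below. Each of these nuclei held at least 5000 unique molecular identifiers (UMIs, 1 per captured RNA molecule) and at most 5% UMIs of mitochondrial genes. Hepatocyte identity was asked as a sum of Cyp7b1, Abcb11 and Arg1 of at least 15 per 10000 UMIs. The pericentral gate itself, which chose the nuclei on a measured value, was at least 5 UMIs of Slc1a2 and at most 2 of Sds. The sum of Ptprc, Stab2, Flt1 and Reln, which mark blood, endothelial and stromal cells, was held to at most 2 UMIs. They are set against 711 periportal nuclei, which passed the same filters with at least 3 UMIs of Sds and at most 1 of Slc1a2. The labels list 2 samples of 1 group, MRD-HCC. They name no treatment, strain, sex, age or driver of the tumours, and include no tumour-free liver. The barcodes name no sample and all carry the same suffix, so the matrix was treated as 1 pooled sample. There are therefore no replicates and no tests, and every interval below is an exact 95% interval for counting error only.

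Blood enters the liver lobule at the portal vein and leaves at the central vein, and hepatocytes along this path divide the work. Those near the portal vein take up ammonia into urea, break down amino acids and make glucose. Those near the central vein carry most cytochromes P450 and bile acid synthesis. The cells in contact with the central vein turn the remaining ammonium into glutamine with glutamine synthetase. Wnt ligands from the endothelium of the central vein act through beta-catenin and its TCF/LEF partners on the pericentral programme. Slc1a2, the gate gene, encodes a glutamate transporter, and Sds, the periportal gate gene, encodes serine dehydratase.

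The promoters of 3 genes of this programme are shown because beta-catenin acts through TCF/LEF factors. They are the gate gene Slc1a2, the cytochrome Cyp2c29 and the Wnt target Axin2. Each line gives the 250 bases before the gene start in RefSeq (GRCm38.p6), 5′ to 3′ on the gene's strand. Both strands were searched for CTTTGAT and CTTTGTT, which do not overlap each other in these windows, and matches are in capitals. For Slc1a2 and Cyp2c29 this start lies inside the longer span that GENCODE gives the gene.
Slc1a2, chr2:102706188-102706437, plus strand: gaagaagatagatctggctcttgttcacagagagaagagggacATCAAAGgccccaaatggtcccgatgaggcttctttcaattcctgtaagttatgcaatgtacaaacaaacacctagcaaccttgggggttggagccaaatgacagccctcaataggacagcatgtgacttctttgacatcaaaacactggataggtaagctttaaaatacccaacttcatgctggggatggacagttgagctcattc
Cyp2c29, chr19:39286835-39287084, plus strand: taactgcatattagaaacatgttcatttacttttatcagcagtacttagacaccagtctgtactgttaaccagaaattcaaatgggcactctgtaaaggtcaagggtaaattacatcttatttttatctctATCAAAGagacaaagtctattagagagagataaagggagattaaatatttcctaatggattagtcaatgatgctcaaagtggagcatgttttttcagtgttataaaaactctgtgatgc
Axin2, chr11:108920099-108920348, plus strand: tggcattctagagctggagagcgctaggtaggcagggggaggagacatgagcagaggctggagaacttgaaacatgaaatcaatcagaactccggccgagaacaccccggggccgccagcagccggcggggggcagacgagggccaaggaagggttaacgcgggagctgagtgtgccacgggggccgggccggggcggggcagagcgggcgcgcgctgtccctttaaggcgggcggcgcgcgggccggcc
The Slc1a2 window held 1 match, beginning 207 bases before the start, and the Cyp2c29 window held 1, beginning 119 bases before it. Both read ATCAAAG, the reverse complement of CTTTGAT. The Axin2 window held neither motif. The windows of Glul, Cyp2e1 and Oat and both windows of Rnf43 were searched too and also held neither, so 2 of the 8 windows searched had a match. Over all 32851 windows of the table, CTTTGAT was present on either strand in 3.21% and either motif in 8.06%. Among 21 windows of measured genes of the pericentral list described below, either motif stood in 4. Among 25 windows of the periportal list it stood in 2, and among 3 windows of the Wnt targets that were at least 2-fold higher it stood in 0. A match is a string of letters and not a shown binding site.

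The 133 nuclei were 0.775% (Clopper-Pearson interval 0.649 to 0.917) of all barcodes and 10.3% (8.66 to 12.03) of the 1297 nuclei that passed the hepatocyte filters. The periportal nuclei were 54.8% (52.1 to 57.6) of these. Both shares depend on the hepatocyte sum, whose genes differed between the classes. Per UMI, Cyp7b1 was 3.85-fold and Abcb11 1.21-fold higher in pericentral than in periportal nuclei, and Arg1 11.3-fold lower. With a sum of at least 30 per 10000 UMIs, 96 pericentral and 155 periportal nuclei passed. With at least 10 they numbered 140 and 949. The shares therefore describe this filter and not the zones of the tissue. Depth was similar in both classes. Pericentral nuclei held 5248 to 40802 UMIs with a median of 14497, and periportal nuclei held 5132 to 53907 with a median of 14706. Together the pericentral nuclei held 2168537 UMIs and the periportal nuclei 11825019. Of the pericentral nuclei 1 was called a doublet, against 22 of the periportal nuclei. Slc1a2, on chromosome 2 at 102658659 to 102790784 (mm10, plus strand), split the hepatocyte nuclei sharply. Among those with at most 2 UMIs of Sds, 407 held no Slc1a2 UMI, 29 held 1, and only 2 held 3 or 4, against 4 with 5 or 6. The 133 nuclei ran from 5 to 168 Slc1a2 UMIs with a median of 43. A further 25 barcodes with at least 5 Slc1a2 UMIs had too low a hepatocyte sum, 46 exceeded the limit on other lineages, and 2 held more than 2 Sds UMIs. Just inside the hepatocyte sum lay 10 nuclei at 15 to under 20 per 10000, and just outside lay 7 at 10 to under 15. These values chose the nuclei and are given as a description.

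**Figure D1:**
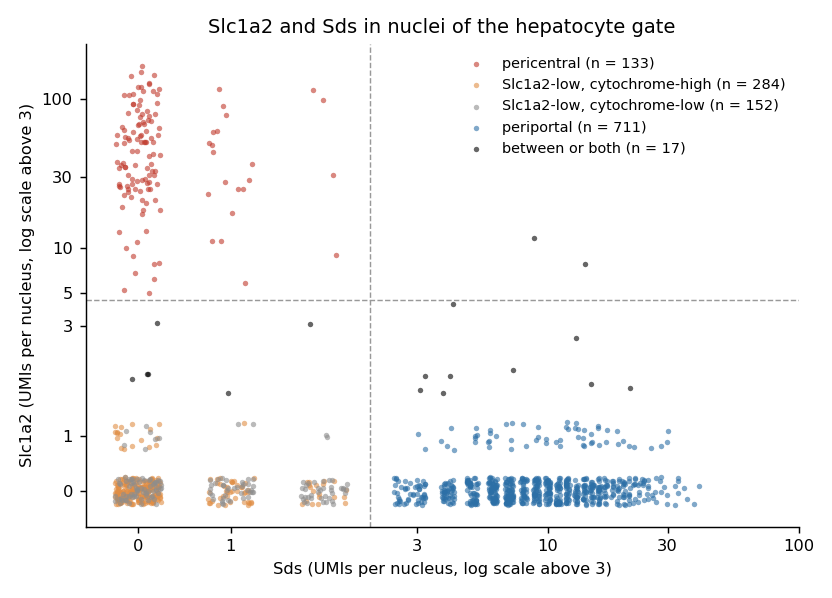
UMIs of Slc1a2 (vertical) and Sds (horizontal) in each of 1297 nuclei that passed the hepatocyte filters, on axes that are linear to 3 and logarithmic above, with points spread slightly around whole numbers. Dashed lines are the gates. The 133 pericentral nuclei (red) hold 5 or more Slc1a2 UMIs, and 2 nuclei hold high counts of both genes.

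Cyp7a1, Cyp2c29 and Cyp2c38, the other markers given for these nuclei, were not used by the gate. They were each at least 2-fold higher than in periportal nuclei. These markers were chosen with earlier results of these data known, so they describe the label and do not test it. Cyp2c29 stood at 1905 CPM (1848 to 1964) in pericentral nuclei, against 70.2 CPM (65.5 to 75.1) in periportal nuclei. CPM scale the summed UMIs of a gene to 1000000 UMIs of its class. Of the 133 nuclei, 129 held at least 5 UMIs of the 3 genes together. General hepatocyte genes were present. Apob, the main lipoprotein protein, stood at 1244 CPM in pericentral nuclei and 1431 CPM in periportal nuclei, and Hnf4a, a hepatocyte transcription factor, at 296 and 355 CPM in pericentral and periportal nuclei. Albumin was at 2344 CPM in pericentral nuclei and 4558 CPM in periportal nuclei. In RNA from outside nuclei albumin was far higher, at 25622 CPM, with Apob at 2945 CPM and Hnf4a at 218 CPM. By the haemoglobin genes, this outside RNA made up at most 8.92% of the UMIs in pericentral nuclei and 7.91% in periportal nuclei. Albumin is therefore not counted here among the genes present in the nuclei. The part of outside RNA in the levels of the 2 classes and in the ratio of albumin was not tested.

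Lists of markers of tumour and other cells were lower in both classes than in the other barcodes, except for the T and NK cell list, which is given beside Tox below. Both classes were filtered for hepatocyte genes and against other lineages, so these levels describe the classes and do not test their purity. Gpc3, an oncofetal proteoglycan of HCC, was at 6.46 CPM in pericentral nuclei, against 13.1 CPM in periportal nuclei and 114 CPM in all other barcodes of the same depth, the periportal nuclei included. The 7 HCC markers summed to 267 CPM in pericentral nuclei, 327 CPM in periportal nuclei and 2799 CPM in the other barcodes, with Spink1 at 0 in pericentral nuclei. Most of each sum was Ccnd3, at 230 CPM in pericentral nuclei, 267 CPM in periportal nuclei and 2589 CPM in the other barcodes. The 6 endothelial markers summed to 27.7 CPM in pericentral nuclei and 24.9 CPM in periportal nuclei, against 200 CPM in the others. The Kupffer and macrophage list was at 61.3 and 45.4 CPM in pericentral and periportal nuclei, the stellate and fibroblast list at 34.6 and 31.0 CPM and the B and plasma cell list at 7.84 and 3.55 CPM. The erythroid list was at 138 and 122 CPM in pericentral and periportal nuclei and the mesothelial list at 0.922 and 3.64 CPM. The Pkhd1 and cholangiocyte list was at 228 CPM in pericentral nuclei, 268 CPM in periportal nuclei and 1404 CPM in the other barcodes. Stab2, which the gate limits and which marks sinusoidal endothelium, was at 35.0 CPM in pericentral nuclei and 12.2 CPM in periportal nuclei, and 76 of the 133 nuclei held at least 1 UMI of the 4 limited genes. The part of endothelial RNA in the results was not tested. By the summed haemoglobin genes, RNA from outside the nuclei made up at most 8.92% of the UMIs in pericentral nuclei and 7.91% in periportal nuclei.

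Of 9781 genes outside the gate with at least 100 UMIs over both classes, 383 (3.92%) were at least 2-fold higher in pericentral nuclei and 451 (4.61%) at least 2-fold lower, together 834 (8.53%). Ratios are log2 of CPM plus 1, and their median over all these genes was -0.02. The ratios ran from -5.55 to 7.36. Since the gate was set on 1 pericentral and 1 periportal gene in the same nuclei, these counts describe the classes and do not test them.

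**Figure D2:**
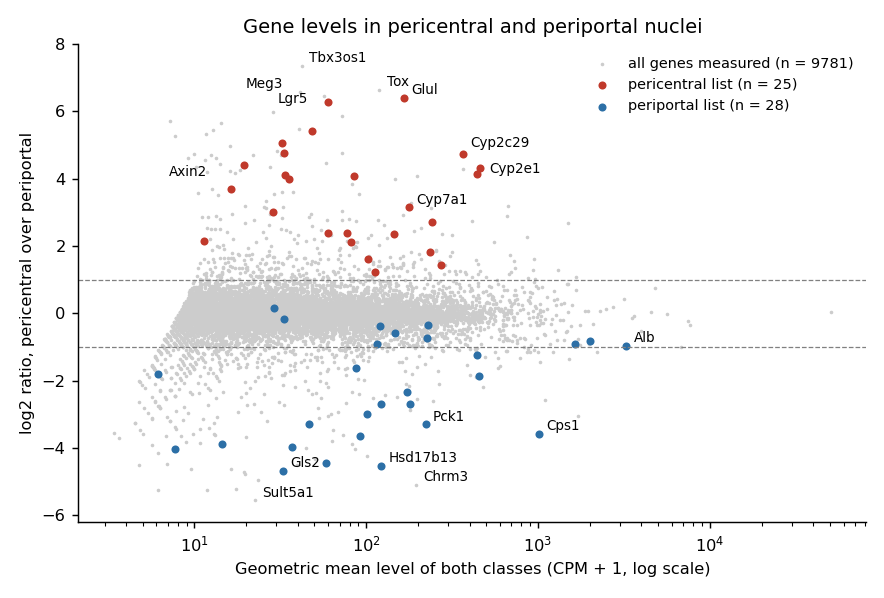
Log2 ratio of pericentral over periportal nuclei (vertical) against the geometric mean of both levels (horizontal, CPM plus 1, log scale) for 9781 genes. Dashed lines mark 2-fold. The 25 measured genes of the pericentral list (red) all lie above the upper line, with a median of 3.69, and 18 of 28 periportal genes (blue) lie below the lower line.

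The measured genes of the textbook pericentral list ran wholly one way. Of its 30 genes 25 had enough UMIs over both classes to be measured. All 25 were at least 2-fold higher in pericentral nuclei, where 3.92% of all genes were, with a median log2 ratio of 3.69. A gene high in the pericentral class alone could reach the UMI minimum. With a minimum of 1 UMI the median was 3.42. This list and the periportal list were chosen with earlier results of these data known. Their counts therefore describe the classes and do not test them. The largest ratios of the pericentral list were those of Glul, Lhpp, Cyp2c38 and Slc13a3. Lhpp, a phosphatase that acts on phosphohistidine, was at 530 CPM (500 to 561) in pericentral nuclei and 5.84 CPM in periportal nuclei. Slc13a3, a sodium-coupled transporter of dicarboxylates, was at 186 CPM (168 to 205) in pericentral nuclei, against 4.57 CPM in periportal nuclei. The periportal list gave 18 of 28 measured genes at least 2-fold lower, where 4.61% of all genes were, and 0 higher, with a median of -2.09.

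Glutamine synthetase RNA was high in pericentral nuclei. Its gene, Glul, lies on chromosome 1 at 153899944 to 153909723 (plus strand) and was at 1523 CPM (1472 to 1576) in pericentral nuclei, against 17.1 CPM (14.8 to 19.6) in periportal nuclei. This is 89.2-fold higher (77.3 to 103). The 133 nuclei held 36.1% of all Glul UMIs in the matrix, although they held 2.28% of all UMIs. Single nuclei ran from 0 to 98 Glul UMIs with a median of 21, and 119 of 133 held at least 1. With each nucleus thinned to 5000 UMIs, 82.7% (75.2 to 88.7) of pericentral nuclei held a Glul UMI, against 7.45% (5.63 to 9.64) of periportal nuclei. Without thinning the shares were 89.5% in pericentral nuclei and 21.1% in periportal nuclei. In RNA from outside nuclei Glul was at 146 CPM. Glul overlaps Teddm2 on the opposite strand.

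Oat, ornithine aminotransferase, which feeds glutamate to that reaction, was at 138 CPM (123 to 154) in pericentral nuclei, against 7.10 CPM (5.67 to 8.79) in periportal nuclei, 19.4-fold higher (15.2 to 25.03). After thinning, 46.6% (37.9 to 55.5) of pericentral nuclei held an Oat UMI, against 4.92% (3.45 to 6.78) of periportal nuclei. Rhbg, an ammonium transporter, had too few UMIs for the list and was looked at after its values were seen: 57 UMIs or 26.3 CPM in pericentral nuclei, against 0.507 CPM in periportal nuclei. The gene of the opposite reaction gave the opposite picture. Gls2, liver glutaminase, was at 5.53 CPM (2.86 to 9.67) in pericentral nuclei, against 165 CPM (158 to 172) in periportal nuclei, 29.8-fold lower (17.0 to 57.8). In the list of glutamine, glutamate and ammonium genes, 3 of 13 were at least 2-fold higher, where 3.92% of all genes were. These were Glul, Oat and the proline pathway gene Aldh4a1. Gls2 and the aminotransferase Got1 were lower, where 4.61% of all genes were. The median was 0.11, with a range of 0.06 to 0.21 over the alternative settings.

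RNA for the entry enzyme of the urea cycle was low. Cps1, carbamoyl phosphate synthetase, which captures ammonia for urea, lies on chromosome 1 at 67123026 to 67231259 (plus strand). It was at 291 CPM (269 to 315) in pericentral nuclei, against 3508 CPM (3475 to 3542) in periportal nuclei, 12.04-fold lower (11.1 to 13.04). In RNA from outside nuclei Cps1 was at 1272 CPM, and its part in the pericentral level was not tested. Ass1, argininosuccinate synthase, was at 76.1 CPM (64.9 to 88.6) in pericentral nuclei and 388 CPM (377 to 399) in periportal nuclei. Asl, argininosuccinate lyase, was at 48.9 CPM in pericentral nuclei and 152 CPM in periportal nuclei. These were the 3 of 7 measured genes that were at least 2-fold lower, where 4.61% of all genes were. Otc, at 119 CPM in pericentral nuclei and 212 CPM in periportal nuclei, and the mitochondrial carriers Slc25a13 and Slc25a15 were within 2-fold. The list's median was -0.83 and ran from -1.41 to -0.24 over the alternative settings. Arg1, the last enzyme of the cycle, was part of the hepatocyte filter and stood at 83.5 CPM in pericentral nuclei and 942 CPM in periportal nuclei.

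Genes that answer to Wnt signalling were high as well. Of 14 listed genes 9 were measured and 6 of these were at least 2-fold higher, where 3.92% of all genes were, with 0 lower and a median of 3.29. That median ran from 1.39 to 3.47 over the alternative settings. A gene high in the pericentral class alone, such as Axin2, could reach the UMI minimum. With a minimum of 1 UMI the median was 1.71. The counts of this list therefore describe the classes and do not test them. Lgr5, the receptor of R-spondins, which strengthen Wnt signals, lies on chromosome 10 at 115450311 to 115587780 (minus strand). It was at 534 CPM (503 to 565) in pericentral nuclei, against 5.07 CPM (3.87 to 6.53) in periportal nuclei, 105-fold higher (81.1 to 139). Single pericentral nuclei held 0 to 39 Lgr5 UMIs with a median of 6, and 125 of 133 held at least 1. After thinning, 85.0% (77.7 to 90.6) of pericentral nuclei held one, against 1.69% (0.875 to 2.93) of periportal nuclei. Axin2, a feedback inhibitor induced by beta-catenin, was at 65.02 CPM (54.7 to 76.7) in pericentral nuclei, against 1.69 CPM (1.03 to 2.61) in periportal nuclei. Axin2 was sparse, with 141 UMIs in all and at most 8 in a nucleus. Tbx3, a repressor of the T-box family, was at 161 CPM (144 to 179) in pericentral nuclei and 5.24 CPM in periportal nuclei.

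The inhibitors of the pathway were high along with its targets. Rnf43 and Znrf3, ligases that remove Wnt receptors from the cell surface, were 9.91-fold (9.02 to 10.9) and 2.74-fold (2.54 to 2.95) higher. Notum, an enzyme that inactivates Wnt ligands, was at 79.8 CPM in pericentral nuclei and 3.21 CPM in periportal nuclei. The parts of the pathway that pass the signal on were within 2-fold. Ctnnb1, beta-catenin itself, was at 62.3 CPM in pericentral nuclei and 73.9 CPM in periportal nuclei. Tcf7l2, the main TCF factor of liver, was at 437 CPM in pericentral nuclei and 497 CPM in periportal nuclei, and the receptor Lgr4 was at 216 and 261 CPM in pericentral and periportal nuclei.

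Cytochromes and conjugating enzymes were higher in part of each family. In cytochrome P450 family 2, 8 of 23 measured genes were at least 2-fold higher and 4 lower, beside 3.92% and 4.61% of all genes. Their median was 0.40 and ran from 0.27 to 0.66 over the alternative settings. Cyp2e1, which oxidises ethanol and small solvents, was at 2059.9 CPM (1999.9 to 2121) in pericentral nuclei and 102 CPM (96.1 to 108) in periportal nuclei, 20.2-fold higher (18.99 to 21.6). All 133 nuclei held Cyp2e1, from 4 to 93 UMIs, so the classes differed in amount and in share, which after thinning was 100% (97.3 to 100) in pericentral and 30.7% in periportal nuclei. Cyp2c38 was at 315 CPM (292 to 340) in pericentral nuclei and 6.43 CPM in periportal nuclei, and Cyp2a5 at 172 CPM (155 to 190) and 5.41 CPM in pericentral and periportal nuclei. The 4 lower genes were Cyp2f2, Cyp2a12, Cyp2u1 and Cyp2j5. Cyp2f2 was at 24.9 CPM (18.7 to 32.5) in pericentral nuclei, against 323 CPM (313 to 334) in periportal nuclei. Members of the Cyp2c, Cyp2a, Ugt and Gstm families are near copies of each other, and no source used here says how reads were divided among them.

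Of the other cytochrome genes, 5 of 6 were at least 2-fold higher, where 3.92% of all genes were. Por, the reductase that supplies these enzymes with electrons, was at 623 CPM (590 to 657) in pericentral nuclei and 120 CPM (114 to 126) in periportal nuclei. Cyp1a2 was at 80.2 CPM in pericentral nuclei and 9.13 CPM in periportal nuclei. Of 20 measured conjugating enzymes 11 were at least 2-fold higher, where 3.92% of all genes were. Their median was 1.03, and 0.53 with the gate on cytochromes in place of Slc1a2. The largest ratios were those of Gstm2, Sult2a8, Ugt2b1 and Gsta3, from 2.75 to 2.95 on the log2 scale. The 1 lower member, the sulfotransferase Sult5a1, had the lowest ratio of all measured genes outside the gate, at 2.31 CPM (0.749 to 5.38) in pericentral nuclei and 154 CPM (147 to 161) in periportal nuclei. The receptors that sense foreign compounds were also zoned in part. Nr1i3 (CAR) was 5.87-fold (5.39 to 6.401) and Ahr 5.16-fold (4.57 to 5.83) higher, while Nr1i2 (PXR) was at 116 and 119 CPM in pericentral and periportal nuclei.

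**Figure D3:**
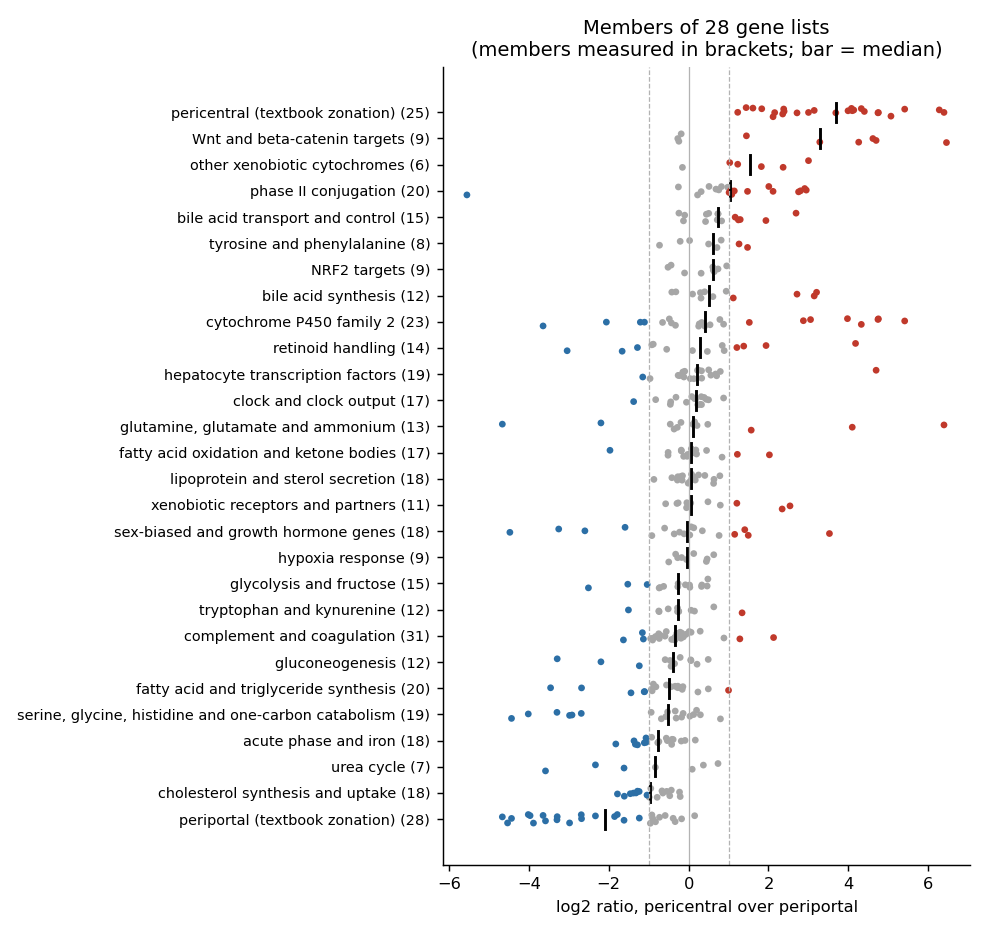
Log2 ratio of pericentral over periportal nuclei for each measured member of 28 gene lists, with the number measured in brackets and a black bar at the median. Red points are at least 2-fold higher and blue points at least 2-fold lower. The pericentral list (median 3.69) and Wnt targets (3.29) stand at the top and the periportal list (-2.09) at the bottom.

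Bile acid synthesis genes were high at the entry enzymes. Cyp7a1, the rate-limiting enzyme, was at 528 CPM (497 to 559) in pericentral nuclei, against 58.7 CPM (54.4 to 63.2) in periportal nuclei, 8.99-fold higher (8.17 to 9.89). Cyp27a1, which opens the alternative route, was 6.63-fold higher (6.12 to 7.18), and Akr1c6, a steroid dehydrogenase, 9.26-fold higher (8.82 to 9.73). With Hsd3b7, 4 of 12 genes were at least 2-fold higher, where 3.92% of all genes were, and 0 lower. The other 8 were within 2-fold, and the median of the list was 0.50. The 12-alpha-hydroxylase Cyp8b1 was low in both, at 9.22 CPM in pericentral nuclei and 11.8 CPM in periportal nuclei. Of 15 transport and control genes 5 were at least 2-fold higher, where 3.92% of all genes were. The other 10 were within 2-fold, and the median was 0.74. The 5 higher genes were the uptake transporters Slco1b2 and Slco1a1 and the export pumps Abcc2, Abcc3 and Abcb4. Slco1b2 was at 3808 CPM (3726 to 3891) in pericentral nuclei and 589 CPM (575 to 603) in periportal nuclei. The bile acid receptor Nr1h4 was at 907 CPM in pericentral nuclei and 970.3 CPM in periportal nuclei.

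Genes for the breakdown of serine, glycine and histidine were lower in part. Of 19 genes 6 were at least 2-fold lower, where 4.61% of all genes were, and 0 higher. Their median was -0.52, and -0.14 with the gate on cytochromes in place of Slc1a2, which is described at the end. Gldc, the glycine-cleaving decarboxylase, was at 11.5 CPM (7.46 to 17.0) in pericentral nuclei and 270.3 CPM (261 to 280) in periportal nuclei. All 4 steps that take histidine to glutamate, Hal, Uroc1, Amdhd1 and Ftcd, were 6.53-fold to 10.5-fold lower. Hal, the first of them, held a UMI in 6.02% (2.63 to 11.5) of thinned pericentral nuclei and 47.3% (43.5 to 51.0) of thinned periportal nuclei. In gluconeogenesis 3 of 12 genes were at least 2-fold lower, where 4.61% of all genes were. Pck1, the entry enzyme, was at 70.1 CPM (59.4 to 82.2) in pericentral nuclei and 695 CPM (680 to 710) in periportal nuclei, while G6pc, which releases glucose, was at 119 and 179 CPM in pericentral and periportal nuclei, within 2-fold. Of 15 glycolysis and fructose genes 3 were at least 2-fold lower and 0 higher, beside 4.61% and 3.92% of all genes. Among the lower were Tkfc (5.80-fold, 4.74 to 7.17) and Khk (2.07-fold, 1.76 to 2.43), kinases of fructose breakdown. In tyrosine breakdown 2 of 8 genes were higher, where 3.92% of all genes were, among them Hpd (2.79-fold, 2.62 to 2.96). In tryptophan breakdown Afmid was higher and Kyat1 lower of 12 genes, near the shares over all genes (3.92% higher, 4.61% lower), with a median of -0.26 that ran from -0.36 to -0.15 over the alternative settings.

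Genes of sterol and fatty acid synthesis leaned to the periportal side. Of 18 cholesterol genes 8 were at least 2-fold lower, where 4.61% of all genes were, and 0 higher. Their median was -0.97, and -0.32 with the gate on cytochromes. Lss, which closes the sterol rings, was at 17.1 CPM (12.01 to 23.5) in pericentral nuclei and 61.1 CPM (56.8 to 65.8) in periportal nuclei. Sqle, squalene epoxidase, was at 43.3 CPM (35.0 to 53.0) in pericentral nuclei and 134 CPM (128 to 141) in periportal nuclei. The regulator Srebf2 was at 142 CPM in pericentral nuclei and 164 CPM in periportal nuclei, within 2-fold. Of 20 fatty acid and triglyceride genes 5 were lower and 1 higher, beside 4.61% and 3.92% of all genes. Acly, which makes cytosolic acetyl-CoA, was 6.53-fold lower (5.37 to 8.03) and Acaca, the rate-limiting carboxylase, 2.72-fold lower (2.58 to 2.88). Pnpla3, a lipase of lipid droplets, had 1 UMI in pericentral nuclei, a ratio of 32.6-fold lower (5.78 to 1296). In fatty acid oxidation 2 of 17 were higher and 1 lower, beside 3.92% and 4.61% of all genes, and no member of the 18 measured lipoprotein genes reached 2-fold.

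Genes of the acute phase and of iron handling were lower in part. Of 18 such genes 7 were at least 2-fold lower, where 4.61% of all genes were, and 0 higher, with a median of -0.76 that ran from -1.33 to -0.54 over the alternative settings. Hamp, the iron hormone hepcidin, was at 948 CPM (907 to 990) in pericentral nuclei and 2447 CPM (2419 to 2475) in periportal nuclei. With the gate on cytochromes in place of Slc1a2, described at the end, its log2 ratio was 0.021 instead of -1.37. The amyloid gene Saa2 was 3.55-fold lower (3.23 to 3.91) and the heme carrier Hpx 2.52-fold lower (2.37 to 2.69). Complement and coagulation gave 3 lower genes, among them C9 and C8a, and 2 higher, C6 and the protein S gene Pros1, of 31. These few calls stand beside 4.61% lower and 3.92% higher over all genes and are no result about the list. C6 was at 1157 CPM (1112 to 1203) in pericentral nuclei and 264 CPM (255 to 273) in periportal nuclei, while C9, which joins it in the same pore, was at 331 CPM (307 to 356) in pericentral nuclei and 1028 CPM (1009.5 to 1046) in periportal nuclei. Of 19 hepatocyte transcription factors 17 were within 2-fold. The others were the higher Tbx3 and the lower Onecut1, beside 3.92% higher and 4.61% lower over all genes. Hypoxia genes and NRF2 targets gave no member of 9 measured in either list past 2-fold.

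Outside the lists, the 15 highest genes included regulators and RNAs with no protein. Tbx3os1, a transcript antisense to Tbx3, had the highest ratio of all measured genes outside the gate. It stood at 538 CPM (507 to 569) in pericentral nuclei, against 2.28 CPM (1.505 to 3.32) in periportal nuclei, 235-fold higher (161 to 359), and the 133 nuclei held 48.6% of its UMIs. No source used here says whether the counting used strand, so reads of Tbx3 and Tbx3os1 may not have been told apart. The same holds for Lgr5, Lhpp, Tox, Esrrg, Slc1a2, Gls2 and Sds, which overlap other genes on the opposite strand. Tox, an HMG-box factor known from T cells, was at 1193 CPM (1147 to 1239.8) in pericentral nuclei and 10.9 CPM (9.11 to 12.96) in periportal nuclei. Single pericentral nuclei held 0 to 73 Tox UMIs with a median of 14, and 129 of 133 held at least 1. Esrrg, an orphan nuclear receptor, was at 550 CPM in pericentral nuclei and 8.54 CPM in periportal nuclei. Rcan2, a calcineurin inhibitor, was at 228 CPM and 2.62 CPM in pericentral and periportal nuclei, and Kif26b, a kinesin family member, at 160.5 CPM and 4.74 CPM in pericentral and periportal nuclei. Veph1 and Snhg11 also stood among the 15. Bmpr1b, a receptor of bone morphogenetic proteins, had 102 UMIs in pericentral nuclei and 3 in periportal nuclei, a ratio of 185 with an interval of 61.7 to 914. Its pericentral UMIs alone brought it over the UMI minimum.

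Beside Tox, the T and NK cell markers were uneven. These 6 markers summed to 29.5 CPM in pericentral nuclei, 4.90 CPM in periportal nuclei and 29.3 CPM in the other barcodes, and 4 of them had a UMI in pericentral nuclei. Themis, an adaptor of T cell receptor signalling, made up most of it, with 48 UMIs over 22 nuclei and at most 7 in one. Cd3e and Gzma, which define these cells, were at 0 in pericentral nuclei. Tox itself held a UMI in 95.5% (90.4 to 98.3) of thinned pericentral nuclei and Themis in 9.02% (4.75 to 15.2). The part of T cell RNA in the level of Tox was not tested.

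The 15 lowest genes were led by Sult5a1, which is described above. Chrm3, the muscarinic acetylcholine receptor M3, was at 32.3 CPM (25.2 to 40.8) in pericentral nuclei and 1132 CPM (1112 to 1151) in periportal nuclei, 35.1-fold lower (27.7 to 44.99). It held a UMI in 8.27% (4.20 to 14.3) of thinned pericentral nuclei and 96.2% (94.5 to 97.5) of thinned periportal nuclei. Hsd17b13, a lipid droplet enzyme, was 24.1-fold lower (18.4 to 32.2), Aspg, an asparaginase, 25.5-fold lower (15.6 to 44.6) and Trpm3, a cation channel, 22.0-fold lower (14.5 to 35.2). Ncam2, an adhesion molecule, was at 22.1 CPM in pericentral nuclei and 438 CPM in periportal nuclei. Cryl1, Bmper and Rbfox1 had 4 to 6 UMIs in the 133 nuclei, and Reck had 2. Gask1a had 1. AC135859.1, for which the annotation used here has no entry, had 0 UMIs in pericentral nuclei and 440 in periportal nuclei, at least 26.9-fold lower against a floor of 3 UMIs over the pericentral class. The exact interval used for the other genes begins at 21.8-fold.

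Many hepatocyte nuclei passed neither gate, and they show which pericentral genes were shared beyond the 133. Among the nuclei with at most 1 Slc1a2 UMI and at most 2 Sds UMIs, 284 held at least 5 UMIs of Cyp7a1, Cyp2c29 and Cyp2c38 together and 152 held fewer. This split was made after the data were seen, and 21 of the nuclei lay at a sum of 5 or 6 and 31 at 3 or 4. The cytochrome-high nuclei had a median of 18378.5 UMIs and the cytochrome-low nuclei 9407.5. Levels of those 3 genes in them follow from the choice and are not compared.

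Glul set the 133 nuclei apart from all 3 other classes. It stood at 1523 CPM in pericentral nuclei, 35.5 CPM in cytochrome-high, 39.6 CPM in cytochrome-low and 17.1 CPM in periportal nuclei. Over cytochrome-high nuclei it was 42.9-fold higher (37.3 to 49.6). In the same order of classes Oat was at 138, 18.4, 16.0 and 7.10 CPM and Cyp2a5 at 172, 17.6, 5.11 and 5.41 CPM. Lgr5 was at 534, 42.0, 15.3 and 5.07 CPM and Axin2 at 65.02, 10.2, 7.67 and 1.69 CPM. Cyp2e1 differed less between the first 2 classes, at 2059.9, 1065, 274 and 102 CPM. Akr1c6 was at 2019.8, 854, 357 and 218 CPM and Cyp27a1 at 619, 537, 249 and 93.4 CPM. The ratio of Cyp27a1 over cytochrome-high nuclei was 1.15-fold (1.08 to 1.23).

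Cps1 divided the classes at the same place as Glul. It was at 291 CPM in pericentral nuclei, against 3506 CPM (3459 to 3555) in cytochrome-high, 2565 CPM in cytochrome-low and 3508 CPM in periportal nuclei. Ass1 was at 76.1 CPM in pericentral nuclei and 353, 316 and 388 CPM in the other 3 classes. Hal and Pck1 instead climbed step by step from pericentral to periportal nuclei. Hal was at 13.8 CPM in pericentral, 34.7 CPM in cytochrome-high, 79.2 CPM in cytochrome-low and 145 CPM in periportal nuclei, and Pck1 at 70.1, 180, 321 and 695 CPM. After thinning, a Cps1 UMI was in 38.3% (30.1 to 47.2) of pericentral nuclei, 98.6% (96.4 to 99.6) of cytochrome-high nuclei and 99.6% (98.8 to 99.9) of periportal nuclei.

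**Figure D4:**
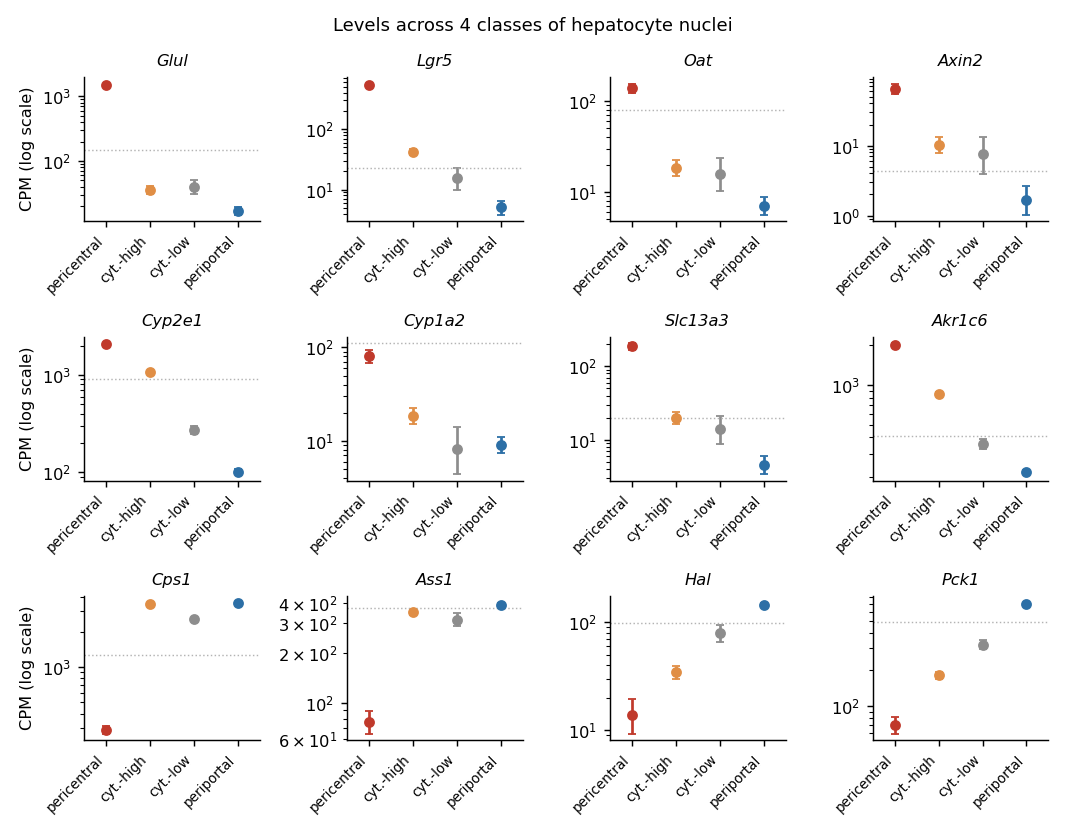
Level in CPM (log scale, separate for each panel) of 12 genes in pericentral, cytochrome-high, cytochrome-low and periportal nuclei, with exact Poisson 95% intervals and a dotted line at the level in barcodes of RNA from outside nuclei. Cyp2e1 descends over the 4 classes, whereas Cps1 is low in pericentral nuclei alone (291 CPM, against 2565 to 3508 CPM).

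Over the 8233 genes with at least 100 UMIs in these 2 classes, 151 (1.83%) were at least 2-fold higher in pericentral than in cytochrome-high nuclei and 169 (2.05%) at least 2-fold lower. Of the pericentral list 14 of 23 measured genes were higher, with a median of 1.43, and of the Wnt targets 6 of 9, with a median of 1.30. Of the periportal list 13 of 24 were lower, with a median of -1.07. Here too a gene high in 1 class alone could reach the UMI minimum. The highest ratios were those of Meg3, Rian and Glul, and the lowest those of Aspg, Cps1 and Stap1. Slc22a3, a transporter of organic cations, was at 88.1 CPM (76.0 to 101) in pericentral nuclei, against 2.73 CPM (1.56 to 4.44) in cytochrome-high nuclei. Col8a1, a collagen, was at 110.2 CPM and 4.44 CPM in pericentral and cytochrome-high nuclei. It was also at 52.4 CPM in cytochrome-low nuclei, 3.30 CPM in periportal nuclei and 30.2 CPM in RNA from outside nuclei.

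The 133 nuclei were not uniform. With 5 to 9 Slc1a2 UMIs there were 9 nuclei, with 10 to 19 there were 11, and with 20 or more 113. Glul was at 83.8 CPM (43.3 to 146), 1535 CPM (1299 to 1801) and 1629 CPM (1573 to 1687) in these bins. Cps1 ran the other way, at 1571 CPM (1373 to 1791), 501 CPM (371 to 663) and 186 CPM (167 to 206). Among the 113, those with 20 to 39 Slc1a2 UMIs had 295 CPM of Cps1 and those with 40 or more had 142 CPM, a boundary added after the data were seen. Lgr5 was at 140, 522 and 563 CPM over the 3 bins and Tox at 203, 808 and 1286 CPM. Cyp2e1 differed less, at 1383, 1760 and 2125 CPM. The lowest bins hold under 20 nuclei each, and median depth was 13860, 8399 and 15481 UMIs over the bins. The part of depth was not tested.

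Glul was missing in 14 of the 133 nuclei, and these also differed in other genes. The 119 nuclei with Glul had 232 CPM (211 to 255) of Cps1, and the 14 without it had 846 CPM (726 to 980.1). Hamp was at 850 CPM in nuclei with Glul and 1864 CPM in those without it. Lgr5 was at 563 and 253 CPM in nuclei with and without Glul, and Cyp2c29 at 1956 and 1429 CPM. Median depth was 14693 UMIs with Glul and 13339 without it. The split was made after the data were seen. Cps1 itself was concentrated: 36 nuclei held none, 12 held at least 10 UMIs, and the 10 highest held 64.9% of its UMIs.

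Across the 133 nuclei, the rate of Slc1a2 per UMI had a Spearman's rho of 0.57 with that of Glul, 0.45 with Lgr5, 0.43 with Tox, -0.34 with Cps1 and -0.01 with Cyp2c29. All points come from 1 pooled matrix, share their gate on Slc1a2 and are given as a description. The rate of Slc1a2 had a rho of 0.01 with depth, that of Cps1 -0.06 and that of Glul -0.25.

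**Figure D5:**
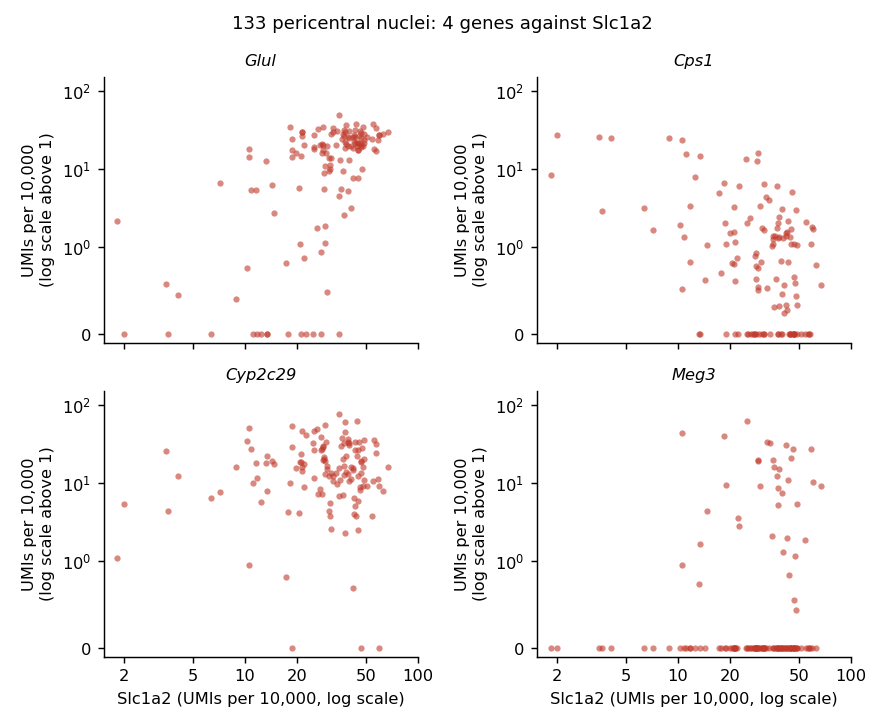
UMIs per 10000 of Glul, Cps1, Cyp2c29 and Meg3 (vertical, linear to 1 and logarithmic above) against Slc1a2 (horizontal, log scale), 1 point for each of the 133 pericentral nuclei. Glul is low at the left and Cps1 at the right, Cyp2c29 has no trend, and Meg3 is at 0 in 95 nuclei.

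A gate that leaves Slc1a2 free took in most of the same nuclei. With at least 5 UMIs of Cyp7a1, Cyp2c29 and Cyp2c38 together and at most 2 of Sds, 415 nuclei stood against 487 with at most 1 UMI of that sum and at least 3 of Sds. Slc1a2 was then at 866 CPM (845 to 886) in the 415 nuclei, against 6.32 CPM (4.66 to 8.38) in the 487, and 129 of the 415 nuclei held at least 5 of its UMIs. These 129 belong to the 133 pericentral nuclei, and 284 of the others are the cytochrome-high nuclei, in which Glul and Lgr5 were far lower, at 35.5 and 42.0 CPM. In the 415 nuclei against the 487, Glul was at 432 CPM against 14.2 CPM, Lgr5 at 175 CPM against 2.63 CPM and Tox at 443 CPM against 7.11 CPM. Cps1 was at 2666 CPM against 3385 CPM, within 2-fold.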

How the data were processed

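Nuclei from frozen mouse liver were run on the 10x Genomics 3' kit (Next GEM v3.1) and sequenced on an Illumina NovaSeq, per the labels' protocols. The authors deposited raw UMI counts of each gene in each barcode. Cell Ranger 5.0 and mm10 are named in the submitters' processing notes. The header of the filtered matrix gives version 5.0.0 and that of the unfiltered matrix version 4, and their counts were equal in every shared entry. No source used here says whether intronic reads or strand were used, or how the 2 samples became 1 matrix. Nuclei were not used as replicates and no test was made.

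The filtered matrix held 32285 genes and 17169 barcodes. UMIs were summed per class and scaled to CPM with exact Poisson intervals. Folds are ratios of CPM with the exact conditional interval, and log2 ratios add 1 CPM. A gene was measured with at least 100 UMIs over both classes, outside the 9 gate genes, and called at 2-fold or more. Intervals cover counting error only. Shares were taken after thinning to 5000 UMIs, with Clopper-Pearson intervals. RNA from outside nuclei was read from 49929 uncalled barcodes of at least 500 and under 850 UMIs. Scrublet (scanpy 1.11.5) called 326 of 9632 barcodes of at least 2000 UMIs doublets, which were kept. Gene positions are those of GENCODE M21, matched by ID for 99.8% of features. The fold code was checked on simulated data. Python 3.11.15, numpy 2.4.6, scipy 1.17.1 and pandas 2.3.3 were used.

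The named genes are the 15 highest and 15 lowest by log2 ratio without Gm or Rik names, the markers, and up to 4 members per list and direction with regulators and rate-limiting enzymes. The same rank was used against cytochrome-high nuclei. The 28 lists hold 476 genes in the matrix, of which 400 were measured. Some genes that the rule names are not reported here. The members, lists and rules were chosen with earlier results of these data known. Alternatives were the depth, mitochondrial, hepatocyte, Slc1a2, Sds and other-lineage limits, a gate per UMI, the cytochrome gate, depth range, mean over nuclei, doublets, RNA from outside nuclei, gene minimum and pseudocount.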

Additional observations from a re-analysis of the deposited data

How the results depend on the processing

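The alternatives numbered 18. No paired analysis was possible because both samples share 1 matrix with no map of nuclei to samples, and no sample could be left out for the same reason. The number of nuclei, 133, was 57 with no other-lineage UMI allowed and 415 with the cytochrome gate. Genes at least 2-fold higher, 383, numbered 664 with a gene minimum of 20 UMIs and 939 with 1. Genes at least 2-fold lower, 451, numbered 786 and 915 with these minimums, 244 with a hepatocyte sum of 30, 169 with the cytochrome gate and 257 with a pseudocount of 10 CPM. The median of the pericentral list, 3.69, was 3.43 with a hepatocyte sum of 30, 2.78 with the cytochrome gate, 4.54 with outside RNA subtracted, 3.42 with either lower gene minimum and 2.89 with a pseudocount of 10 CPM. That of the periportal list, -2.09, was -1.915 with a hepatocyte sum of 10, -0.997 with the cytochrome gate, -3.003 with outside RNA subtracted and -1.85 with a pseudocount of 10 CPM. Subtraction gave 452 higher and 634 lower genes. The 5 lists with a median of at least 1 in size kept their sign under each alternative run. Of 155 named or listed genes at least 2-fold apart, 93 stayed so under each alternative that measured them. The cytochrome gate ended 58 of 152 such calls, a pseudocount of 10 CPM ended 15 of 155, and each other alternative ended 0 to 6. With the cytochrome gate Hamp and the clock gene Npas2 changed sign, to log2 ratios of 0.021 and 0.087. The cause was not tested. Depth limits genes such as Axin2 and Rhbg, with few UMIs per nucleus.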

Other observations

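Meg3 and Rian, long RNAs of the imprinted Dlk1-Dio3 region, were among the highest genes of the pericentral nuclei but came from few of them. Meg3, on chromosome 12 at 109541001 to 109571726 (plus strand), was at 403 CPM (377 to 431) in pericentral nuclei and 3.21 CPM (2.27 to 4.41) in periportal nuclei, and was present in 38 of the 133 nuclei. The 10 highest nuclei, with up to 91 UMIs in one, held 71.7% of its UMIs. Rian, which lies next to it on the same strand, was at 100.1 CPM (87.2 to 114) in pericentral nuclei and 1.01 CPM in periportal nuclei, in 24 nuclei, and the 10 highest held 82.9%. Their rates had a Spearman's rho of 0.78 over the 133 nuclei. In the 38 nuclei with Meg3, Rian was at 312 CPM (271 to 356), against 0.678 CPM (0.0172 to 3.78) in the 95 without it. Those 38 nuclei were deeper, with a median of 18201 UMIs against 14061. Glul was at 1797 CPM in nuclei with Meg3 and 1394 CPM in those without it, and Cps1 at 130 CPM (104 to 160) with and 367 CPM (337 to 400) without it. Cyp2c29 was at 1905 CPM in both. After thinning, 23.3% (16.4 to 31.4) of pericentral nuclei held a Meg3 UMI, against 2.46% of cytochrome-high, 5.26% of cytochrome-low and 1.69% of periportal nuclei. Meg3, Rian, their split and these values were chosen after the values were seen.

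Genes with sex-biased or growth hormone-dependent expression in mouse liver went both ways, with 4 of 18 at least 2-fold higher and 4 lower in pericentral nuclei (3.92% and 4.61% of all genes). Hsd3b5, a steroid dehydrogenase of male mouse liver, was at 45.7 CPM (37.1 to 55.6) in pericentral nuclei and 3.04 CPM (2.13 to 4.21) in periportal nuclei. It was also at 45.3 CPM in cytochrome-high nuclei, and 96 of the 133 nuclei held none. The oestrogen receptor gene Esr1 was at 98.7 CPM (85.9 to 113) in pericentral, 227 CPM in cytochrome-high, 401 CPM in cytochrome-low and 603 CPM in periportal nuclei. Of 17 clock genes 1 was lower, the activator Npas2, at 5.99 CPM (3.19 to 10.3) in pericentral nuclei and 17.2 CPM (14.9 to 19.7) in periportal nuclei. A count of 1 lies near the share over all genes (4.61%), and with the cytochrome gate the log2 ratio of Npas2 was 0.087 instead of -1.38. Retinoid genes went both ways too, with 4 of 14 higher and 3 lower, beside 3.92% and 4.61% of all genes. The retinol dehydrogenase Rdh9 was at 72.4 CPM (61.5 to 84.7) in pericentral nuclei and 3.04 CPM in periportal nuclei, while its relative Rdh16f2 was at 19.8 CPM (14.4 to 26.7) in pericentral nuclei and 171 CPM (163 to 178) in periportal nuclei.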
